A study of Mus musculus with 15 samples.

Results

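Macrophages can be driven by the type 2 cytokines IL-4 and IL-13 into a state called alternative activation, and 9 genes known from that state or from the secreted products of macrophages are described here. They are Retnla, Chil3, Arg1, Ear2, Ear12, Cbr2, F13a1, Lyz1 and Lyz2, which are 9 of the 24084 genes in the corrected count table. They were chosen by their levels in these libraries, across the 6 groups, so their values are given as a description and carry no test. All of them code for secreted proteins except Arg1 and Cbr2, whose enzymes work inside cells.

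The study took cells positive for F4/80 and CD45 from C57BL/6J mice and sequenced their RNA straight after sorting, with a low-input method. Its 6 groups are SAM ganglia (macrophages of sympathetic ganglia, 3 libraries), SAM fibers (nerve fibers dissected out of subcutaneous fat, 2 libraries), sATM (subcutaneous fat, 2 libraries), vATM (visceral fat, 2 libraries), SpM (spleen, 3 libraries) and microglia (brain, 3 libraries). Tissues of 10 mice were used in all; the sources used here give neither the ages nor whether each library stands for its own animals. Every sample title carries the tag ND, none carries a genetic change or an added agent, and a library is named here by its group and its replicate number. Cells were freed at 37 °C with enzymes that differed by tissue. Collagenase was used for 30 minutes on fat, spleen and brain, for 15 minutes on fibers after 30 minutes of hyaluronidase, and for 10 minutes on ganglia before 30 minutes of trypsin. The tissue and the digestion of the nerve groups cannot be told apart.

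In the alternatively activated state, IL-4 or IL-13 binds receptors that signal through the transcription factor STAT6, and in mouse macrophages Retnla, Chil3 and Arg1 are its textbook target genes. Retnla encodes a secreted protein of the resistin family, Chil3 a chitinase-like protein, and Arg1 the enzyme that splits arginine into ornithine and urea. Lyz2 encodes the lysozyme of myeloid cells and Lyz1 the lysozyme otherwise known from Paneth cells of the gut, F13a1 the A subunit of clotting factor XIII, and Ear2 and Ear12 ribonucleases first known from eosinophils.

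The lysozyme pair is shown first, because the genes lie side by side and are nearly identical while their levels were unlike. Lyz1 lies at chr10:117287795-117292868 and Lyz2 at chr10:117277541-117282272, both on the minus strand of mm10. Over the whole coding sequence, 422 of 444 bases are identical (95.0%). The first 120 coding bases, in GRCm38 with the GENCODE annotation, are at chr10:117292719-117292838 for Lyz1 and chr10:117282123-117282242 for Lyz2, read 5′ to 3′ on the minus strand. Capitals mark the 11 bases that differ, which are the letters by which a read can be assigned to one gene or the other.
Lyz1: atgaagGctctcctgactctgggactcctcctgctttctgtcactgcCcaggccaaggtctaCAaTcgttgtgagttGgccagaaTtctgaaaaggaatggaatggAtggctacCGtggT
Lyz2: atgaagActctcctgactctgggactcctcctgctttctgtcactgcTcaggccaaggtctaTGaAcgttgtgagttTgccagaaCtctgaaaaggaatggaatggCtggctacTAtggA

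The letters just before both genes are also close. The 120 bases before each RefSeq start (GRCm38.p6, minus strand, chr10:117292869-117292988 for Lyz1 and chr10:117282273-117282392 for Lyz2) are 92.5% identical, with the 9 differing bases in capitals.
Lyz1: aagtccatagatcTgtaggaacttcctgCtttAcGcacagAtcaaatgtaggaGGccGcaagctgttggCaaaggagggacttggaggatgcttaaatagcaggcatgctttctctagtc
Lyz2: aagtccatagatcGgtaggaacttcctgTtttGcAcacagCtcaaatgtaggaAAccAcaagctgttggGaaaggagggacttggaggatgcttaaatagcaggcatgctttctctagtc

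RefSeq promoters of 250 bases were found for 7 of the 9 genes, with 8 promoters in all, since F13a1 has several starts. Each was searched on both strands for 2 STAT-type motifs (TTC and GAA with 4 or with 3 bases between them), the C/EBP-type motif TTGCNNNAA, the PU.1-type motif GAGGAA and the AP-1-type motif TGANTCA. The promoters of Retnla (chr16:48842359-48842608, plus strand) and Chil3 (chr3:106167565-106167814, minus strand) are printed because each holds a STAT-type motif, in capitals, while their levels were unlike. In Retnla it is TTCACAAGAA, starting 145 bases before the RefSeq start, and the second run in capitals, TTCCTC, is the PU.1-type motif on the other strand. That start is the base after the printed stretch. The authors' annotation begins the gene earlier, at chr16:48842552, so the end of the stretch lies inside the gene as placed there.
Retnla: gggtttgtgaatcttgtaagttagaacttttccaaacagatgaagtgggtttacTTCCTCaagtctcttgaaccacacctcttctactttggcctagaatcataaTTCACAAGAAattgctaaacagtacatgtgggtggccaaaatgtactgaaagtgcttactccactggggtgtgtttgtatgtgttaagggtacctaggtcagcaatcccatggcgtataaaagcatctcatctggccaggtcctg
Chil3: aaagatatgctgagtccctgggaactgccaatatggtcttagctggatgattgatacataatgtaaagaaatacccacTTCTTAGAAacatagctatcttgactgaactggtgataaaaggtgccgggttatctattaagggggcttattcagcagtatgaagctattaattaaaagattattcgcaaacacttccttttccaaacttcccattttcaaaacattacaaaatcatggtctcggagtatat

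In Chil3 the match is TTCTTAGAA, 172 bases before the start. Among all 32851 RefSeq promoters of this length, 5.85% hold the STAT-type motif with 4 bases between and 7.02% that with 3. The PU.1-type motif, found in 23.3% of promoters, is in those of Retnla, Cbr2 and F13a1, and the C/EBP-type motif, found in 8.29%, is in that of Lyz1. The AP-1-type motif, found in 6.75%, is in none of the 8. A match is a run of letters and was not tested for binding.

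Per library, between 2.55 and 12.5 M corrected counts were available (M for mega), of which 46.1 to 71.5% fell on ribosomal RNA rows. Levels are given as CPM, counts per M counts after scaling, and a count of 3, taken as the lowest level distinguishable from 0, is 0.249 to 0.897 CPM depending on the library and covers counting error only. Adgre1, which encodes F4/80, stood at 129 to 609 CPM and Ptprc, which encodes CD45, at 134 to 951 CPM, so both sorting markers were found in all 15 libraries. The microglial gene P2ry12 stood at 3445 to 4730 CPM in microglia and Spic, the factor of red pulp macrophages, at 547 to 802 CPM in SpM. In bulk samples, fewer cells of a type and less RNA per cell cannot be told apart.

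Retnla (chr16:48842552-48844461, plus strand of mm10 in the authors' table) separated the macrophages of fat from all others. It stood at 9629 and 6120 CPM in vATM and at 837 and 4602 CPM in sATM. In the nerve groups it stood at 150, 12.9 and 76.8 CPM in SAM ganglia and at 106 and 91.0 CPM in SAM fibers. Each of the 4 fat libraries was therefore above each of the 5 nerve libraries, while the ganglia and fibers overlapped.

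In SpM, Retnla was down to 3.58, 2.41 and 1.67 CPM. In microglia it was at 0.43, 0.56 and 0 CPM, at or near the level of 3 counts. Between neighbours in the order vATM, sATM, SAM fibers, SAM ganglia, SpM and microglia, the libraries overlapped for fibers and ganglia alone. The group means were 7874 ± 2481 CPM in vATM, 2720 ± 2662 in sATM, 98.4 ± 10.5 in SAM fibers (SD, n = 2 each), and 79.8 ± 68.5 in SAM ganglia and 2.55 ± 0.959 in SpM (SD, n = 3 each).

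In vATM 1, Retnla had more counts than any other gene outside the ribosomal RNA rows, 2.25% of them, and in vATM 2 it ranked 4 with 1.55%. It ranked 7 in sATM 2 and 30 in sATM 1, but 366 to 5196 in the ganglia. Fitted log2 differences were 8.99 ± 0.57 for fat against the mean of the other 4 groups and -5.71 ± 0.67 for nerve against fat (SE). The depots differed by -1.53 ± 0.82 (sATM minus vATM), and by -3.25 without sATM 2, so the size of that difference rests on 1 library. No run of 50 bases in the Retnla transcript is found in another annotated gene, and its sister Retnlg, 84.0% identical in the coding part, had at most 170 counts in a library, in microglia 1.

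**Figure D1:**
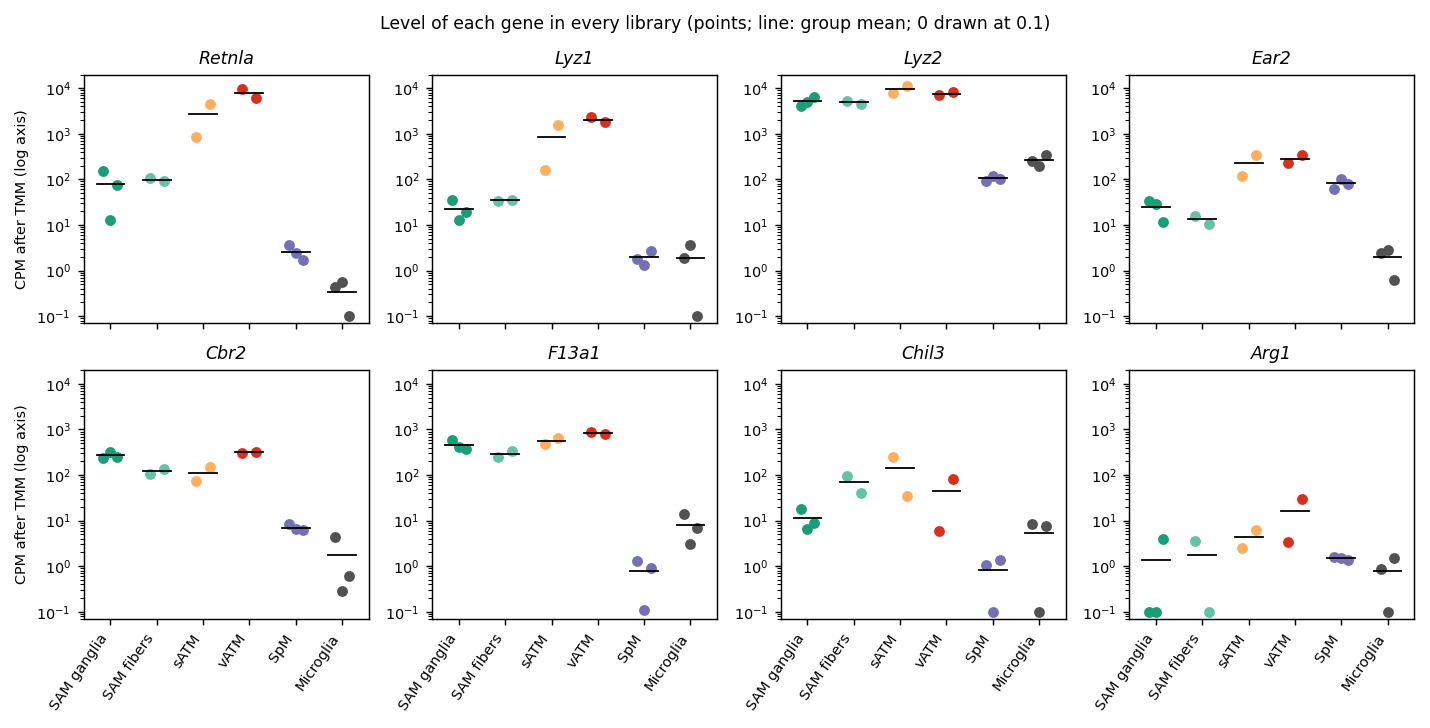
Level of each gene in every library, as CPM on a log axis, with points for libraries and a line for each group mean; a level of 0 is drawn at 0.1, and Ear12 is left out because it is read from the same bases as Ear2. Retnla spans from 0 in a microglia library to 9629 CPM in a vATM library, Lyz2 is at 4004 CPM or more in every fat and nerve library, and Arg1 stays below 30 CPM throughout.

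Lyz1 followed the order of Retnla, while its neighbour Lyz2 did not separate fat from nerve to the same extent. Lyz1 stood at 2296 and 1812 CPM in vATM and at 161 and 1536 CPM in sATM. In SAM ganglia it was at 35.6, 12.6 and 19.1 CPM, and in SAM fibers at 34.1 and 35.8 CPM. The lowest fat library, sATM 1, was thus above every nerve library, and sATM 1 was also the lowest fat library for Retnla.

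Lyz1 was low in SpM (1.75, 1.31 and 2.74 CPM) and in microglia (1.90, 3.65 and 0 CPM), and these groups overlapped. Lyz2, in contrast, was high in all fat and nerve groups. It stood at 7082 and 8224 CPM in vATM and at 8006 and 11025 CPM in sATM, with the depots overlapping. In SAM ganglia it was at 4004, 5048 and 6373 CPM and in SAM fibers at 5149 and 4610 CPM, again overlapping, and by CPM all below fat. By RPKM this gap was not there, since SAM ganglia 3 (7344) was above every fat library except sATM 2. It ranked between 1 and 8 by counts outside ribosomal RNA rows in each of these 9 libraries.

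Microglia had 250, 193 and 342 CPM of Lyz2 and SpM had 94.1, 116 and 104 CPM, with no overlap. The log2 difference of nerve minus fat was -0.77 ± 0.22 for Lyz2, which became -2.08 on the raw gene-body table (counts over whole genes without the authors' removal of DNA reads), and -5.56 ± 0.68 for Lyz1 (SE). Between the depots it was 0.31 ± 0.32 for Lyz2 and -1.27 ± 0.83 for Lyz1 (sATM minus vATM), and the latter was -3.70 without sATM 2.

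Set side by side per length, the pair shows how the makeup of lysozyme mRNA differed. As a share of the summed RPKM (reads per kilobase of gene and M reads) of both genes, Lyz1 made up 21.3 and 15.5% in vATM, 10.4% in sATM 2 and 1.65% in sATM 1. It made up 0.208 to 0.735% in SAM ganglia, 0.549 and 0.643% in SAM fibers, 0.938 to 2.12% in SpM and 0 to 1.52% in microglia. The vATM libraries and sATM 2 were above all others, and sATM 1 lay inside the range of SpM. Of the 50-base windows of the Lyz1 transcript, 16.1% are also found in Lyz2, so a part of the reads cannot be assigned to either gene by sequence.

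**Figure D2:**
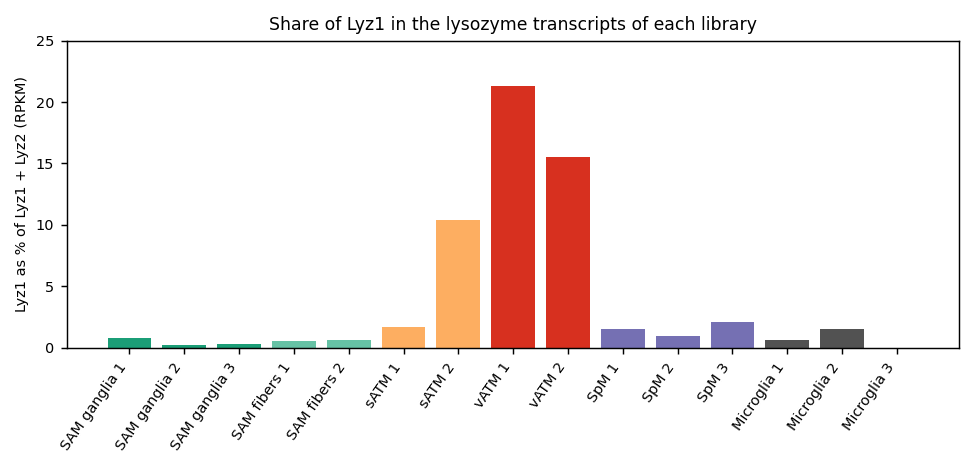
Share of Lyz1 in the summed RPKM of Lyz1 and Lyz2, in percent, with 1 bar per library and colours by group. The share reaches 21.3% in vATM 1 and is below 2.2% in every library other than both vATM libraries and sATM 2.

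Ear2 and Ear12 gave 1 measurement between them. The Ear12 row covers chr14:44102887-44103357, a stretch inside Ear2 (chr14:44102654-44103531, plus strand), and it equals the row of Ear3 in 15 of 15 libraries to within 1e-09. The ratio of Ear12 to Ear2 counts had a median of 0.953 over the libraries (0.833 to 2.14). The 9 genes are therefore 8 separate loci. Of the 50-base windows of Ear2, 41.5% are shared with relatives such as Ear10 and Ear1, so its level is uncertain by what the counting did with shared reads; Ear10 had at most 7 counts and Ear1 at most 27 in a library.

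Ear2 was highest in fat, like Retnla, but next came spleen and not the nerve groups. It stood at 230 and 338 CPM in vATM, at 117 and 338 CPM in sATM and at 62.8, 103 and 78.2 CPM in SpM. In SAM ganglia it was at 32.8, 29.5 and 11.6 CPM, and in SAM fibers at 15.8 and 10.6 CPM. By CPM, fat, spleen and nerve formed 3 steps without overlap, while the depots overlapped each other and the nerve groups overlapped each other. By the deposited RPKM, fat and spleen overlapped, with Ear2 at 145 in sATM 1 and 165 in SpM 2, and the ganglia lay above the fibers.

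Microglia were lowest, with Ear2 at 2.42, 2.81 and 0.61 CPM. The log2 difference was -3.82 ± 0.42 for nerve minus fat and 5.40 ± 0.58 for SpM minus microglia (SE). Markers of eosinophils, the cells these ribonucleases are named after, are given beside this order. Their 7 markers summed to 7.06 to 24.3 CPM in vATM, 7.24 to 21.4 in sATM, 2.31 to 6.42 in SAM ganglia and 3.12 to 9.56 in SAM fibers. They summed to 23.3 to 34.0 CPM in microglia and 659 to 917 CPM in SpM, where the receptor gene Ccr3 made up nearly all of it. The eosinophil granule genes Prg2, Prg3 and Epx were at or below 1.68 CPM in every library. In vATM 2 Alox15 stood at 22.5 CPM and made up most of the sum of 24.3 CPM. The part of eosinophils in the levels of Ear2 was not tested.

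F13a1 and Cbr2 were high in both fat and nerve macrophages. F13a1 (chr13:36867178-37049213, minus strand), whose product forms the transglutaminase that cross-links fibrin, stood at 884 and 799 CPM in vATM and at 492 and 648 CPM in sATM. SAM ganglia had 586, 423 and 368 CPM and SAM fibers 244 and 342 CPM. Ganglia overlapped with sATM and by CPM lay above fibers, but by RPKM ganglia and fibers overlapped, with 88.5 in SAM ganglia 2 and 98.9 in SAM fibers 2. By corrected counts it was nearly absent in SpM, at 1.33, 0.11 and 0.91 CPM, and microglia had 13.9, 3.09 and 6.99 CPM, above every SpM library. The raw gene-body counts of F13a1 in SpM were 43, 409 and 843, which came down to 16, 1 and 6. In microglia 629, 1315 and 839 came down to 161, 11 and 46.

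Cbr2 (chr11:120729485-120732021, minus strand), which encodes a carbonyl reductase, had the smallest fitted difference between nerve and fat of the 9 genes. It stood at 305 and 327 CPM in vATM and at 239, 323 and 251 CPM in SAM ganglia, 2 groups that overlapped. SAM fibers had 104 and 137 CPM and sATM 73.8 and 147 CPM, which also overlapped. The ganglia were thus near visceral fat and the fibers near the subcutaneous fat they were dissected from.

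SpM had 8.23, 6.56 and 6.09 CPM of Cbr2 and microglia 4.41, 0.28 and 0.61 CPM. The nerve minus fat difference was -0.05 ± 0.39 on the log2 scale for Cbr2, and it was 0.14 with scaling by RLE, the size factors of DESeq2, and -1.32 on the raw gene-body table. For F13a1 it was -0.92 ± 0.36, and -1.82 on the raw gene-body table. Of the 50-base windows of Cbr2, 15.1% are also in the gene model Gm11771, while those of F13a1 are unique.

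Chil3 and Arg1, both textbook targets of IL-4 signalling like Retnla, were higher in fat than in the mean of the other groups, by 3.37 ± 0.66 and 2.68 ± 0.97 on the log2 scale (SE), but their groups overlapped. The mean of Chil3 was highest in sATM and that of Arg1 in vATM, the group that was also highest for Retnla. Chil3 lies at chr3:106147554-106167564 and Arg1 at chr10:24915207-24927470, both on the minus strand. Chil3 stood at 255 and 35.0 CPM in sATM, at 97.1 and 40.6 CPM in SAM fibers and at 5.99 and 82.1 CPM in vATM. SAM ganglia had 18.0, 6.51 and 9.03 CPM, microglia 8.48, 0 and 7.45 CPM and SpM 1.08, 0 and 1.37 CPM. Every neighbouring pair of groups in that order of Chil3 overlapped. Among groups without a level of 0, the widest spread of Chil3 was 13.7-fold, in vATM, where Retnla spread 1.57-fold.

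Arg1 was low in all 15 libraries. Its rounded counts were 28 and 238 in vATM, 10 and 53 in sATM, 12 and 0 in SAM fibers and 0, 0 and 20 in SAM ganglia. SpM had 19, 14 and 9 counts and microglia 10, 0 and 10. The single library that stands out is vATM 2, at 29.2 CPM, against 3.35 CPM in vATM 1, and all neighbouring groups overlapped. Without vATM 2 the log2 difference between the depots went from -1.90 ± 1.78 to 0.55 (sATM minus vATM) for Arg1 and from 1.71 ± 1.19 to 4.67 for Chil3; without sATM 1 that of Chil3 was -0.30.

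Per length the gap between the 3 genes was wide. In vATM the mean RPKM was 10018 ± 1105 for Retnla, 25.3 ± 32.2 for Chil3 and 9.67 ± 11.5 for Arg1 (SD, n = 2). The corrected and the raw tables also differed more for Chil3 and Arg1 than for Retnla outside fat. Raw gene-body counts take in introns as well as DNA reads. In the fat libraries 60.3% of the raw gene-body counts of Retnla were kept, 65.99% of those of Chil3 and 54.8% of those of Arg1. In the other libraries 60.0% were kept for Retnla, 26.5% for Chil3 and 11.7% for Arg1. In SAM fibers 1, the library with the most raw counts on olfactory receptor genes (1233 per M, against 32.9 in vATM 1), 196 raw counts of Arg1 came down to 12. The part of this removal in the order of Chil3 and Arg1 was not tested.

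High Chil3 went with monocyte markers in some libraries and not in others. Ly6c2 and Plac8, genes of circulating monocytes, stood at 281 and 296 CPM in sATM 1, at 289 and 149 CPM in SAM fibers 1 and at 120 and 129 CPM in SAM fibers 2. In sATM 2 they were at 59.3 and 50.6 CPM. In vATM 2, with 82.1 CPM of Chil3, they were at 2.46 and 0.98 CPM. All 7 monocyte markers were found, with sums of 1216 to 1880 CPM in sATM, 703 to 975 in vATM, 662 to 750 in SAM fibers, 580 to 883 in SAM ganglia, 17.2 to 25.5 in SpM and 18.5 to 60.2 in microglia. Ccr2 alone made up 97.9 and 98.5% of the sum in vATM and 82.0 to 92.7% in SAM ganglia, against 26.4 and 50.7% in SAM fibers and 54.8 and 84.5% in sATM.

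Neutrophils also express Chil3, and their 10 markers summed to 136 to 151 CPM in SAM fibers, 19.9 to 106 in SAM ganglia, 99.9 to 109 in microglia, 33.1 to 46.3 in SpM, 26.9 to 56.3 in sATM and 9.83 to 11.7 in vATM. In vATM 6 of the 10 were at 0 in both libraries. Microglia 1 had 3 at 0, microglia 2 had 5 and microglia 3 had 4, while SAM fibers 1 had 3 and SAM fibers 2 had 0. In microglia S100a8 stood at 0.56 to 7.18 CPM and S100a9 at 2.81 to 11.9 CPM. In SAM fibers they stood at 36.8 to 39.3 and 54.4 to 67.9 CPM. The part of either cell type in the levels of Chil3 was not tested. Of the 50-base windows of Chil3, 29.4% are shared with Chil4 and a predicted gene, and Chil4 had at most 6 counts in a library.

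**Figure D3:**
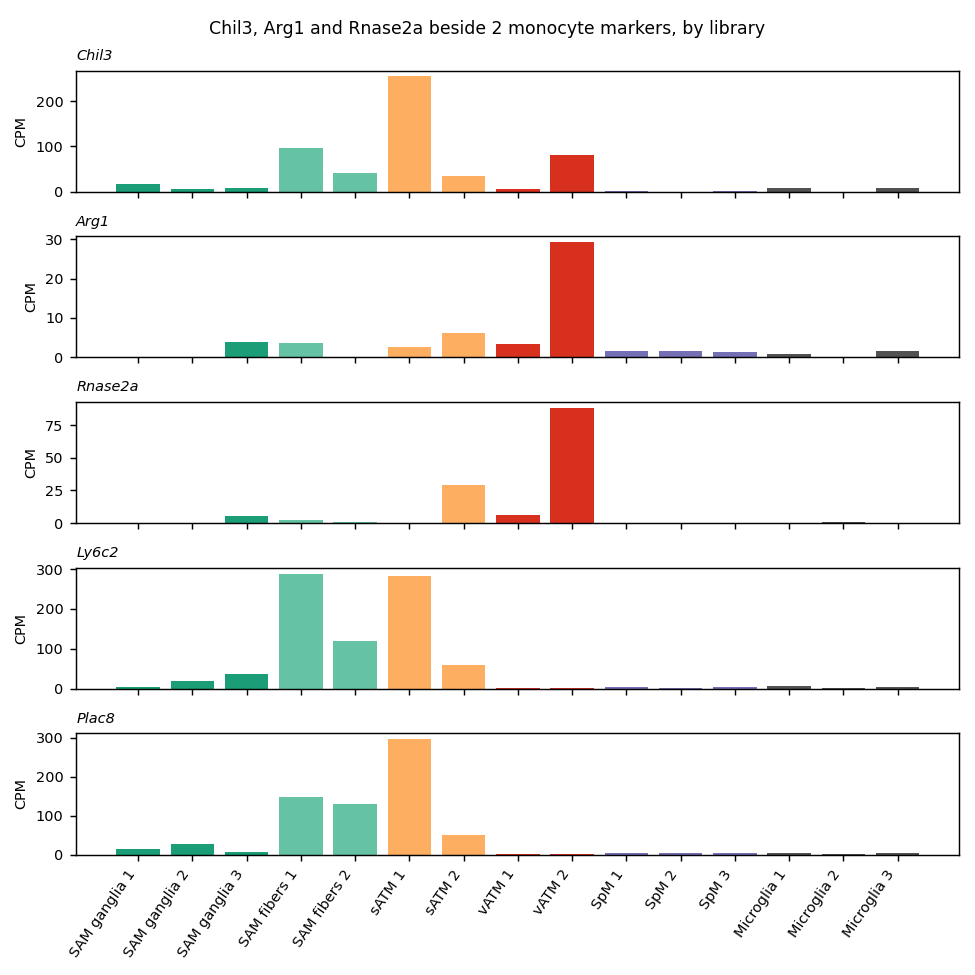
CPM of Chil3, Arg1, the ribonuclease gene Rnase2a and the monocyte genes Ly6c2 and Plac8, with 1 bar per library and a linear axis from 0 in each panel. Chil3 is highest in sATM 1, where Ly6c2 and Plac8 are also high, while in vATM 2 Chil3, Arg1 and Rnase2a are high and both monocyte genes are below 3 CPM.

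Across the 5 comparisons, the genes whose libraries did not overlap changed from one to the next. For fat against the other 4 groups, 5 rows lay wholly higher in fat (Retnla, Lyz1, Lyz2, Ear2 and Ear12) by CPM, where 2.1% of the 15289 tested genes did. By the deposited RPKM, an alternative chosen after seeing the data, 2 did so, Retnla and Lyz1. All shares over the tested genes are by CPM, and none was computed by RPKM, so the RPKM counts have no share beside them. By CPM the same 5 rows lay wholly lower in nerve than in fat, where 4.53% of genes did, and by RPKM 4 did, all but Lyz2; both comparisons use the same fat libraries. Both are sides of the pattern the genes were chosen for, and nothing is read from these counts.

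Between the depots, Retnla, Lyz1, Cbr2 and F13a1 were lower by CPM in both sATM libraries than in both vATM libraries (18.0% of genes were). By RPKM only Retnla and Cbr2 were, since sATM 2 was above vATM 1 for Lyz1 and F13a1. The difference was -1.52 ± 0.59 for Cbr2 and -0.56 ± 0.54 for F13a1 on the log2 scale. Between the nerve sources, Cbr2 and F13a1 were higher by CPM in all ganglia libraries than in fibers (18.8% of genes), by 1.17 ± 0.55 and 0.65 ± 0.50; by RPKM Cbr2, Ear2 and Ear12 were. Chil3 was lower (16.9% of genes), by -2.63 ± 1.09. The shares of genes given here are by CPM and do not apply to the RPKM counts.

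Spleen and microglia, the groups with the least of these transcripts, still differed. Retnla, Ear2, Ear12 and Cbr2 were higher in every SpM library (16.8% of genes), and F13a1 and Lyz2 were lower (15.6% of genes). The log2 differences were 2.96 ± 1.09 for Retnla, 1.73 ± 0.55 for Cbr2, -3.34 ± 0.57 for F13a1 and -1.32 ± 0.27 for Lyz2 (SpM minus microglia, SE). That of F13a1 was -1.19 on the raw gene-body table and -1.43 in limma on log2(RPKM + 1). With Ear12 left out as a repeat of Ear2, the genes took 4.78 and 4.49% of counts outside ribosomal RNA rows in vATM and 2.69 and 4.49% in sATM. They took 1.15 to 1.72% in the nerve groups and 0.0435 to 0.0940% in SpM and microglia.

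**Figure D4:**
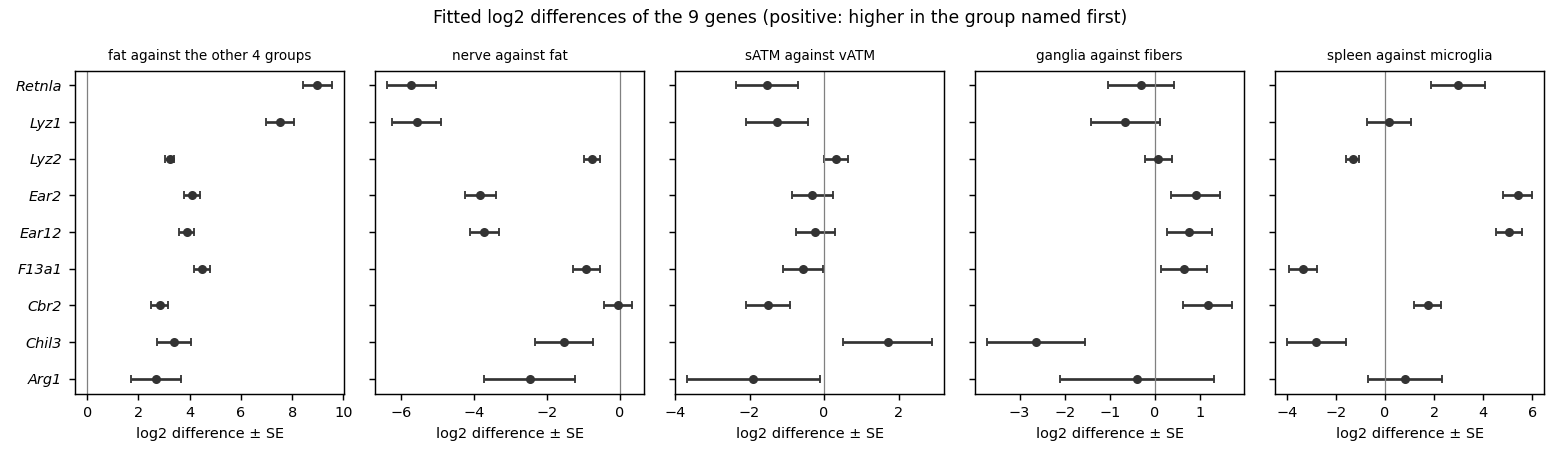
Fitted log2 differences of the 9 genes in the 5 comparisons, with bars for 1 SE from the fit over all 15 libraries; a positive value is higher in the group named first. Retnla reaches 8.99 for fat against the other groups, Cbr2 is at -0.05 for nerve against fat, and Chil3 and F13a1 are negative for spleen against microglia while Ear2 is at 5.40.

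Of the other genes listed for alternative activation, some were higher in fat as well. These and the lists below were tested with edgeR's quasi-likelihood test, and a gene was called at a Benjamini-Hochberg adjusted p below 0.05 over all tested genes and a change of at least 2-fold, which 5.66% of genes met as higher in fat and 2.9% as lower. Of 27 tested, 12 rose in fat against the other 4 groups and 1 fell, with a median log2 difference of 1.31 against -0.06 over all genes. The number that rose was 7 on the raw gene-body table and 7 in limma on RPKM. This list and those below were chosen with earlier results of these data known. Their counts and medians are therefore a description, and nothing is read from them. Fn1, which encodes fibronectin, rose most among those named, from 7.68 ± 6.30 CPM in microglia to 2495 ± 267 in vATM (log2 difference 5.86 ± 0.47, edgeR adjusted p = 5.73e-07). The lectin genes Clec10a (5.41 ± 0.44, edgeR adjusted p = 6.95e-07) and Mgl2 (5.09 ± 0.55, adjusted p = 1.38e-05) and the transcription factor gene Klf4 (2.93 ± 0.21, adjusted p = 2.17e-07) also rose. Klf4 was nevertheless highest in SAM fibers, at 635 ± 150 CPM, against 336 ± 82.0 in sATM and 319 ± 63.1 in vATM. Mgl2 had 362 ± 82.1 CPM in SAM fibers, against 246 ± 156 in sATM and 478 ± 68.3 in vATM. Tgm2, a transglutaminase gene often used as a marker of this state, fell (-1.42 ± 0.39, adjusted p = 0.0275).

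In nerve against fat fewer genes of this list passed the test. Here 2.98% of all genes were called higher and 3.49% lower. Of the 27, Fn1 (-4.50 ± 0.60, edgeR adjusted p = 0.000305), Clec10a (-2.29 ± 0.49, adjusted p = 0.00953) and Alox15 fell, and Trem2 rose (1.90 ± 0.32, adjusted p = 0.00181). The call of Clec10a was lost without sATM 2 or vATM 2, and that of Alox15, which had at most 22.5 CPM, was lost under 16 of 22 alternatives. Mgl2 and Klf4 did not pass the test, with log2 differences of -0.33 ± 0.57 and 0.14 ± 0.25 (edgeR adjusted p = 0.726 and 0.730). In ganglia against fibers, where 2.85% of all genes were called higher and 1.27% lower, Tgm2, Il10, Kdm6b and Klf4 of this list fell; on the raw gene-body table the fall of each was lost. In spleen against microglia, where 5.8% were called higher and 5.31% lower, 8 of the 27 rose and 3 fell, among them Trem2 with a mean of 0.0919 CPM in SpM and 953 CPM in microglia.

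Of 12 tested genes of IL-4 and IL-13 signalling, Il2rg (1.76 ± 0.21, edgeR adjusted p = 3.96e-05), Il1rl1 (2.75 ± 0.46, adjusted p = 0.000727) and Jak3 rose in fat, and none fell, with a list median of 0.26. Jak3 lost its call under 15 of 22 alternatives. SAM fibers had 59.8 ± 1.35 CPM of Il2rg, against 52.8 ± 5.61 in vATM and 98.3 ± 20.8 in sATM. Of Il1rl1 they had 25.2 ± 14.7 CPM, against 21.4 ± 10.1 in sATM and 44.4 ± 1.15 in vATM. In nerve against fat neither Il2rg nor Il1rl1 passed the test (edgeR adjusted p = 0.0866 and 0.432). There Socs3 and Irs2 were called higher, and Tyk2 and Jak3 lower. The receptor gene Il4ra stood at 77.4 ± 23.3 CPM in vATM, 102 ± 37.4 in sATM, 150 ± 31.9 in SAM ganglia and 154 ± 84.2 in SAM fibers. Stat6 stood at 72.7 ± 3.40 CPM in vATM and 53.6 ± 4.81 in SAM ganglia. Neither passed the test in fat against the rest, with log2 differences of -0.43 ± 0.25 and 0.29 ± 0.19 and adjusted p-values of 0.317 and 0.374 in edgeR.

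Relatives of the members had patterns of their own. In the ribonuclease A family, Rnase6 (2.06 ± 0.25, edgeR adjusted p = 3.97e-05) and Rnase2a (5.21 ± 1.04, adjusted p = 0.00319) rose in fat; Ear3, whose row is that of Ear12, is given no test. Rnase2a had 0 and 254 counts in sATM and 50 and 718 in vATM, so it was highest in vATM 2, as Arg1 was, and its call was lost without sATM 2 or without vATM 2. Ang (1.47 ± 0.27, adjusted p = 0.00407) and Rnase4 (1.21 ± 0.28, adjusted p = 0.0153) rose in nerve against fat, the opposite direction from Ear2. These genes overlap in the genome, so reads may be shared between them. Both calls were lost without sATM 1 or without vATM 1, and that of Rnase4 also without sATM 2, vATM 2 or SAM fibers 2. Rnase4 had 411 ± 46.5 CPM in SAM ganglia and 659 ± 73.1 in microglia (n = 3 each). In SAM fibers it had 128 ± 45.4 CPM, against 153 ± 5.14 in vATM and 64.9 ± 3.26 in sATM (n = 2 each). Ang had 101 ± 24.9 CPM in SAM ganglia, 42.0 ± 10.8 in SAM fibers, 38.3 ± 9.46 in vATM and 14.2 ± 7.18 in sATM. Rnase6 did not pass the test in nerve against fat (edgeR adjusted p = 0.112), with 31.4 ± 10.9 CPM in SAM ganglia and 35.7 ± 6.89 in vATM.

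Of 14 tested genes of arginine and polyamine metabolism around Arg1, edgeR called 0 in fat against the other groups, with 2 at an unadjusted p below 0.05, and DESeq2 and limma also called 0, while 2 were called higher without SAM fibers 2. Slc7a2, a carrier of arginine into cells, stood at 26.4 ± 3.39 CPM in SpM (n = 3) against a mean of at most 2.02 CPM in any other group. Of 12 tested transglutaminase and clotting genes beside F13a1, 6 rose in fat and 1 fell. They include F10 (4.53 ± 0.61, edgeR adjusted p = 0.000108), which encodes clotting factor X, and Plaur (2.59 ± 0.25, adjusted p = 3.26e-06), the urokinase receptor gene. In limma on RPKM 3 of the list rose. SAM fibers had 70.5 ± 25.4 CPM of Plaur, against 58.9 ± 3.11 in vATM and 80.9 ± 31.0 in sATM. Of F10 they had 19.0 ± 17.6 CPM, against 24.8 ± 9.21 in vATM and 61.5 ± 17.1 in sATM. Thbs1, also among the 6, was highest in SAM fibers, at 208 ± 99.2 CPM. In nerve against fat Plaur and F5, another of the 6, were called lower, while F10 and Thbs1 did not pass the test (edgeR adjusted p = 0.0607 and 0.201).

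The genes most like each member were sought over the 15 libraries, by the root mean square difference of log2 levels after each gene's own mean was taken away, among genes of similar top level. Retnla and Lyz1 were each other's nearest gene (1.20), and Fn1 came next for both (1.76 from Retnla and 1.35 from Lyz1). The median distance in the pools searched was 4.45 for Retnla (41 genes) and 3.62 for Lyz1 (166 genes). Nearest to F13a1 was the chemokine receptor gene Ccr2 (0.609), with 1029 CPM in sATM, 601 in SAM ganglia and 3.9 in SpM on average. Nearest to Cbr2 was the lectin gene Cd209a (0.903), and nearest to Chil3 was Hp, which encodes haptoglobin (1.21).

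Nearest to Lyz2, in a pool of 33 genes, were Zfp36 (0.991) and Atf3 (1.24), which are immediate early genes. Nearest to Ear2, after the rows that share its bases, was Unc119 (0.742). Nearest to Arg1 was Asb4 (0.782), in a pool whose median was 1.54. These distances describe the same libraries from which the members were chosen, and share their scaling and depth.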

How the data were processed

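RNA of sorted macrophages was sequenced in 15 libraries of 6 groups, taken from the sample labels. Per the submitters' processing notes, STAR, HOMER and the genome build mm10 were used; the sources used here give no versions, settings or strand use. The authors deposited 3 tables: estimated counts per gene with DNA contamination removed (24084 genes), raw counts over whole gene bodies without that removal (24525 genes), and RPKM values (24414 genes).

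After rounding of the estimated counts, edgeR 4.0.16 (R 4.3.3) was run. Genes passing filterByExpr at a minimum count of 10 numbered 15289, and all 9 members passed. TMM factors ran from 0.668 to 1.40, and a quasi-likelihood model with a mean for each group was fitted to the 15 libraries together, with Benjamini-Hochberg adjustment over all tested genes. Groups are weighted equally on the log scale. For members the estimate and SE are given without a test. Libraries may not be separate animals, so p-values measure only how far libraries spread, and this spread may be technical. The script was tested on simulated data.

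Members and the 9 companion lists were chosen with earlier results of these data known. All members are named. Other genes were mostly drawn from 3 sources, and not all of these are printed. The sources were the called genes among the 4 with the smallest p per companion list and comparison, relatives above 10 CPM, and the 3 genes most like each member. Alternatives were RLE scaling, no filter, DESeq2 1.42.0, the raw table, limma 3.58.1 on log2(RPKM + 0.1) and log2(RPKM + 1), a replicate block, and leaving out each library. RefSeq promoters (GRCm38.p6) and GENCODE coding sequences were read by gene symbol.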

Additional observations from a re-analysis of the deposited data

How the results depend on the processing

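Of 990 log2 differences of the 9 genes under alternatives, 945 moved by less than the gene's own SD within groups and 45 moved more. That SD ran from 0.289 for Lyz2 to 1.69 for Chil3 on the log2 scale. Chil3 in nerve against fat thus ran from -2.13 to -0.14 with 0 values counted as moved. Many alternatives also left out a library outside the groups compared, so the 945 do not measure stability. On the raw gene-body table the difference of ganglia minus fibers changed sign for Retnla (-0.31 to 2.04) and Lyz1 (-0.65 to 1.62); other changes of sign were of values within about 1 SE of 0 or came with 1 library left out. The total of genes called was 1308 for fat against the other groups, 989 for nerve against fat, 6 for sATM against vATM, 629 for ganglia against fibers and 1699 for spleen against microglia. On the raw gene-body table these were 376, 44, 0, 0 and 302. DESeq2 gave 1775 for nerve against fat, 119 for the depots and 1461 for ganglia against fibers. In limma, nerve against fat had 642 with 0.1 added to RPKM, and with 1 added the depots had 3 and ganglia against fibers 1038. Without the filter on low counts the depots had 82. Leaving out 1 library at a time gave 850 to 2483, 379 to 2965, 0 to 68, 346 to 2737 and 1334 to 2058, in the order above. RLE scaling moved the share of calls that were higher from 46.1 to 60.9% in nerve against fat and from 69.2 to 50.3% in ganglia against fibers, with the median of all genes at 0.18 and -0.25. Replicate numbers paired the libraries only in part. Over 33 same-numbered pairs the correlation of deviations ran from -0.390 to 0.629, 15 were over 0.1, and 9 of 15 libraries correlated best with their own number. Replicate 1 libraries other than SAM fibers 1 all correlated positively with each other, from 0.172 (SAM ganglia 1 and sATM 1) to 0.629 (microglia 1 and SpM 1). SAM fibers 1 correlated negatively with each of them. Outside fibers, replicate 1 also had the fewest raw counts on olfactory receptor genes per M, with 32.9 in vATM 1 against 278 in vATM 2. A link between these patterns was not tested. With the replicate block, 1164, 885, 13, 552 and 1691 genes were called. Of the companion genes named, 1220 of 1407 alternative values kept the call and 185 lost it. In ganglia against fibers, Klf4 turned on the raw gene-body table (adjusted p = 0.745, log2 0.70), and Arg2, with counts in 1 fibers library only, had an adjusted p of 1 without that library; over single libraries left out, its adjusted p ran from 0.00272 to 1. The causes were not tested. Low counts limit Arg1 in all groups, and Retnla and Lyz1 in spleen and microglia.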

Other observations

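Several relatives of these genes differed between spleen macrophages and microglia. Slpi, which encodes a secreted inhibitor of leukocyte proteases, stood at 1444 ± 146 CPM in SpM and 1.32 ± 0.324 CPM in microglia (n = 3 each, log2 difference 10.13 ± 0.92, edgeR adjusted p = 1.30e-06). Tgm2, a transglutaminase gene like F13a1, had 289 ± 16.7 CPM in SpM, the group in which F13a1 was nearly absent by corrected counts, and 4.05 ± 2.14 CPM in SAM ganglia. Chid1, a member of the chitinase family, had 172 ± 34.0 CPM in SpM and 65.9 ± 12.6 CPM in microglia (n = 3 each, edgeR adjusted p = 0.0436, a call lost under 13 of 22 alternatives). Rnase6 was higher in microglia than in SpM (log2 difference -2.96 ± 0.42, edgeR adjusted p = 0.000116), the opposite direction from Ear2.

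Between the nerve sources, SAM fibers had 60.7 ± 45.2 CPM of Tgm2 and 208 ± 99.2 CPM of Thbs1, which encodes thrombospondin (n = 2). SAM ganglia had 18.8 ± 13.5 CPM of Thbs1 (n = 3). Both genes were lower in ganglia (Tgm2 -3.93 ± 0.60, edgeR adjusted p = 0.00193, and Thbs1 -3.48 ± 0.56, adjusted p = 0.00252). Transcripts of other cells also differed between these sources. The 6 fibroblast markers summed to 167 and 246 CPM in SAM fibers and 42.9 to 53.3 in SAM ganglia. The 6 sympathetic neuron markers summed to 229 and 633 CPM in SAM fibers and 87.8 to 118 in SAM ganglia. The part of such cells in the levels of Tgm2 and Thbs1 was not tested.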
